A study of Homo sapiens with 8 samples.

Results

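The comparison described here sets IRF1-guide clone 11 against IRF1-guide clone 13, which are clonal lines of CFPAC1, an established cell line of pancreatic ductal adenocarcinoma. Its members were chosen by label: the 4 H3K27ac libraries of clones 11 and 13, of 8 libraries in the series, matched by treatment over 31961 peaks. Clones 11 and 13 were each isolated by dilution from CFPAC1 cells infected with the lentiCRISPRv2 plasmid (spelled lentiCRIPSv2 in the labels) expressing wild-type Cas9 and a guide RNA against IRF1. For each clone, 1 library came from cells given hIFNb for 2 hours and 1 from untreated cells (UT). Control clones 1 and 4, isolated in the same manner after infection with the plasmid and with no guide named, gave the other 4 libraries under the same treatments. Infection with the plasmid and passage through a single-cell stage are thus common to every clone, and each side of the comparison is 1 clone. No clone was replicated within a treatment. The p-values of the clone difference rest on how far clones of a genotype depart from a common hIFNb change, pooled over both genotypes. They say nothing of how other clones of either genotype vary.

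H3K27ac is acetylation of histone H3 at lysine 27, a mark of active promoters and enhancers. IRF1 is a transcription factor that interferons induce and that binds interferon-response elements in antiviral and antigen-presentation genes. Interferon beta signals through the JAK-STAT pathway to the same kind of genes. Cells of a cancer line are not uniform, so lines grown from single cells can differ in chromosome content and in which enhancers are active, whatever was done to them in common.

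Values are scores, the peak counts that the authors normalised and rounded to whole numbers. Scores summed to 3278918 with hIFNb and 3317881 untreated in clone 11, and to 3277561 with hIFNb and 3316085 untreated in clone 13, within a range of 3277561 to 3460390 over the 8 libraries. Peaks with a score of 0 numbered 56 to 172 per library. A peak lay over the start of 9 of 10 ductal epithelial markers, with none at CFTR. No peak lay over the start of any of 4 endocrine markers, and 1 leukocyte marker of 4 with a known start (CD14) had one, at scores of 4 to 14. The summed ductal scores were 11622 with hIFNb and 11271 untreated in clone 11, and 11126 with hIFNb and 11229 untreated in clone 13. Of the acinar markers only CPA1 and CELA3A lay within a peak, summing to 6151 with hIFNb and 6671 untreated in clone 11, and to 6275 with hIFNb and 7058 untreated in clone 13. COL1A1 alone of the fibroblast markers and PECAM1 alone of the endothelial ones had a peak, at 206 to 300 for PECAM1 and 58 to 81 for COL1A1 in clones 11 and 13. The part of other cell types in the results was not tested. H3K27ac at the IRF1 gene does not check the edit, since a guide cut leaves the promoter in place. Input DNA libraries were not analysed here, so more acetylation per DNA copy and more copies of the DNA cannot be told apart in any value below. The deposited columns of clones 11 and 1 end in R1 and those of clones 13 and 4 in R2, so the clone and that ending cannot be told apart either, and the difference between the control clones, which carry the same endings, is given beside the results.

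The clones differed at 4151 peaks (13% of the 31961 tested), 2138 of them higher (6.69%) and 2013 lower (6.30%) in clone 11. Calls rest on limma's moderated test of log2(score + 1), at a Benjamini-Hochberg adjusted p under 0.05 over all peaks. A log2 difference is the mean over both treatments of clone 11 minus clone 13, and on this scale the change of low peaks is understated. Of the called peaks, 4147 differed in the same direction with hIFNb and without it, as did 62.6% of all peaks. Disagreement between the treatments is part of the spread in the test, so the test itself favours peaks with a common direction. The libraries of the clones did not overlap at 3662 called peaks, while 37.2% of all peaks were without overlap. The median absolute log2 difference was 0.74 at called peaks and 0.28 at all peaks. Control clone 1 against control clone 4, in the same fit, gave 3990 calls (12.5%), so the count for clones 11 and 13 is near that between clones without the guide.

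At most called peaks clone 13 lay outside the range of the other clones. At the peaks higher in clone 11, clone 13 had the lowest mean of the 4 clones at 1970 of 2138 (92.1%). At the peaks lower in clone 11, clone 13 had the highest mean at 1552 of 2013 (77.1%), and clone 11 the lowest at 1082. Over all calls, clone 13 lay farther from the mean of the control clones at 3144 of 4151 (75.7%). These are counts over peaks of the same libraries and were not tested. The peaks were chosen for a difference between clones 11 and 13, which by itself favours an outlying clone 11 or 13. The same shares over all peaks were not counted.

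The difference with hIFNb and the difference without it come from separate libraries. Across peaks, which are not independent replicates, their Pearson correlation was 0.39 over all 31961 peaks, and 0.22, 0.44, 0.59 and 0.74 over 4 groups of about equal size in order of increasing mean score. For the control pair it was 0.44 over all peaks. Calls were made at 3.62% of the peaks in the lowest of these groups and 25.8% of those in the highest.

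**Figure D1:**
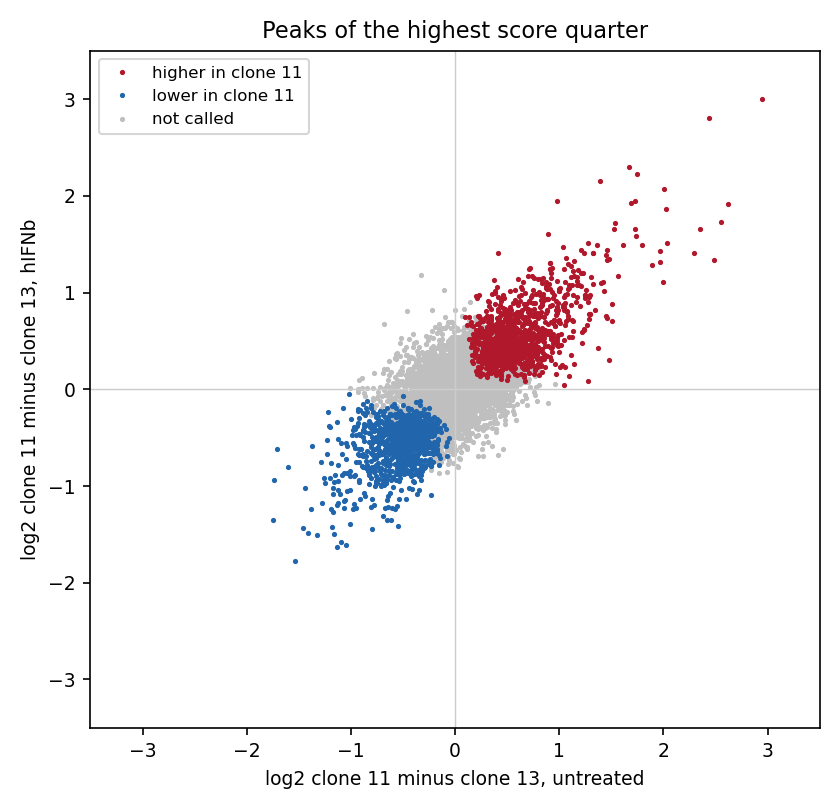
Each point is 1 of the 7983 peaks in the highest of 4 groups by mean score, with the log2 difference of clone 11 minus clone 13 in untreated cells on the x axis and after hIFNb on the y axis. Peaks called higher (red) and lower (blue) in clone 11 lie along the diagonal, which the test favours. The correlation between the axes over all points is 0.74.

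The total fell when any 1 library was left out. Each such fit has 1 residual degree of freedom in place of 2, which by itself favours fewer calls. Leaving out a control library does not change the log2 difference. Without the library of clone 11 or 13 in 1 treatment, that difference rests on the other treatment alone. The 8 fits are thus not 8 separate checks. Without 1 library, 122 peaks were called when untreated clone 11 was left out, 198 without clone 11 given hIFNb, 154 without untreated clone 13, 252 without clone 13 given hIFNb, and 875 to 975 without any 1 control library. With treatment left out of the fit, 2 peaks were called. For that reason 73 peaks (0.228%) that were called with all libraries and without any 1 of the 8 are described first, and other peaks are given with the highest adjusted p reached when 1 library was left out, termed the leave-out adjusted p.

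Of these 73 peaks, 60 were higher and 13 lower in clone 11. All 73 were also called from the 4 libraries of clones 11 and 13 alone, which the rule nearly fixes. Without 1 control library, a peak's own spread comes from those 4 libraries alone. The libraries of the clones did not overlap at any of the 73, which the rule also favours, while 37.2% of all peaks were without overlap. Clone 13 had the lowest mean of the 4 clones at 59 of the 60 higher peaks, and clone 11 the highest at 15. Among the 13 lower ones, clone 13 had the highest mean at 12 and clone 11 the lowest at 8. The choice of peaks by their difference between clones 11 and 13 favours such counts here too. The peaks were wide and strong, which the rule favours: the median width was 18000 bp against 3550 bp for all peaks, and the median mean score 354 against 47.4. Chromosome 20 held 16 of them and chromosome 19 held 13, all higher in clone 11. Chromosome 10 held 7 higher, chromosome 7 held 3 higher and 5 lower, chromosome 12 held 2 higher and 4 lower, and chromosome 5 held 3 lower. Genes among the 73 that the naming rule did not take were chosen after their values were seen.

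**Figure D2:**
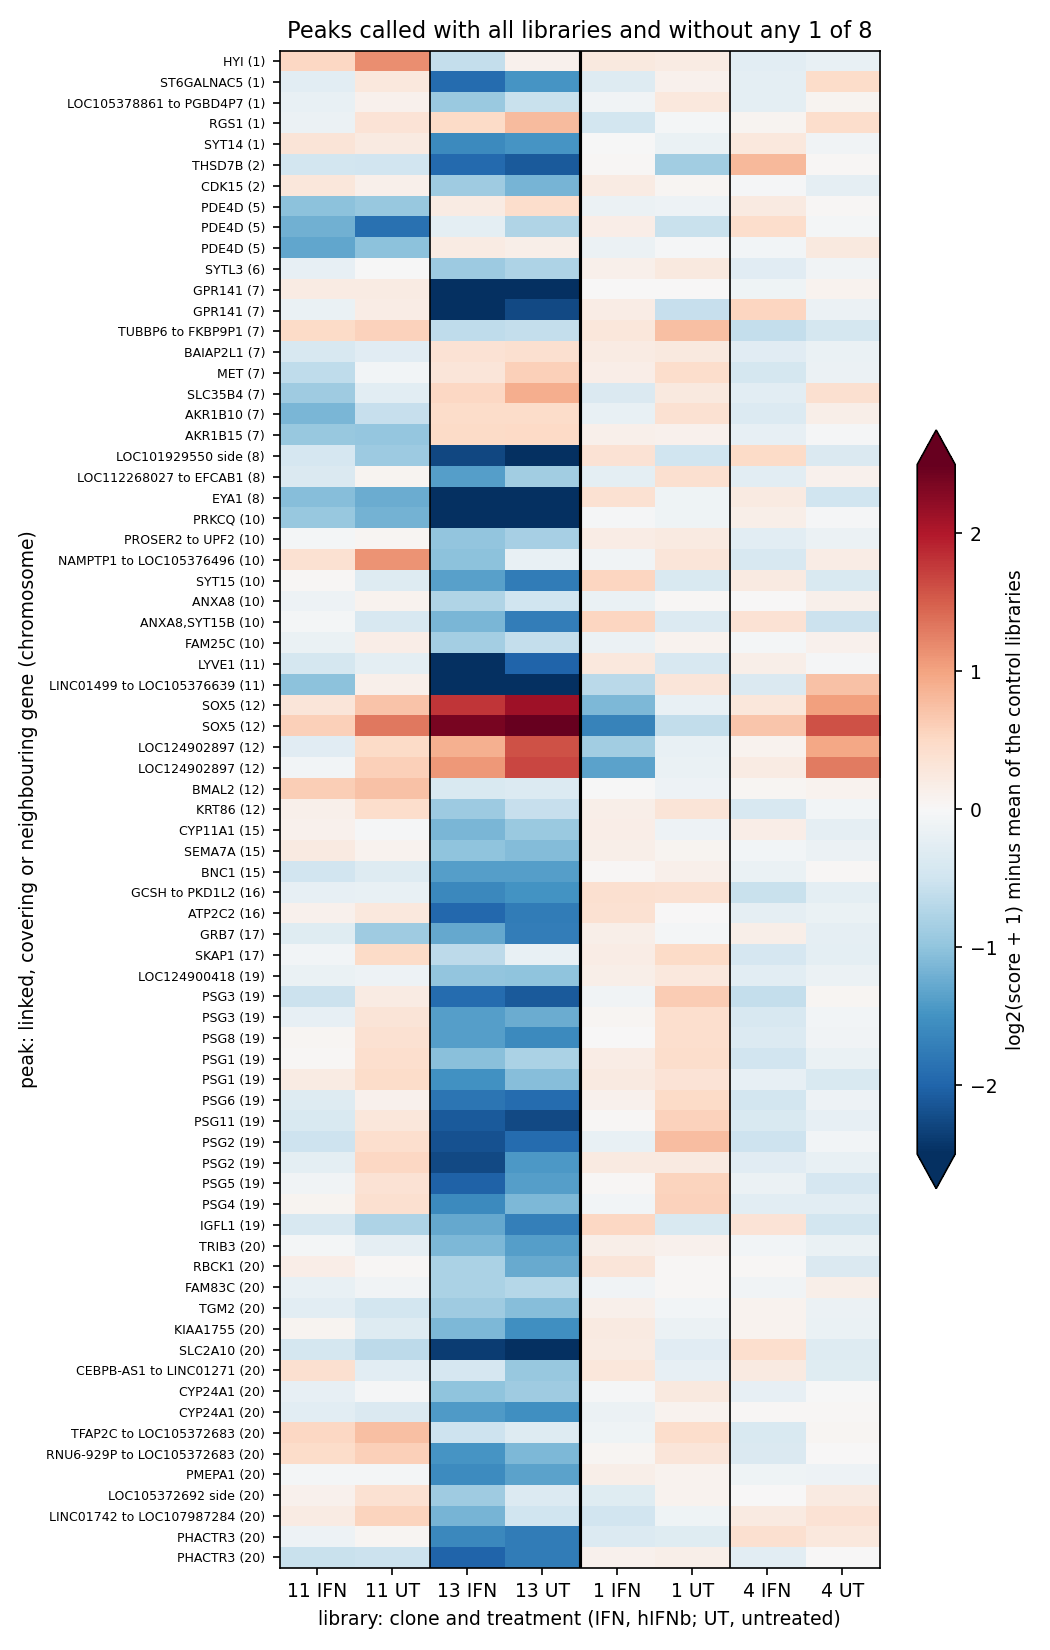
Rows are the 73 peaks in genome order, named by the linked, covering or neighbouring gene, and columns are the 8 libraries. Colour gives log2(score + 1) minus the mean of the 4 control libraries and saturates beyond 2.5 in either direction. Clone 13 is more strongly coloured than clone 11 in most rows, blue at the PSG, GPR141, EYA1 and PRKCQ peaks and red at the SOX5 peaks.

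Among these peaks, the largest difference near a protein-coding gene lay at GPR141, an orphan G protein-coupled receptor gene on chromosome 7. The peak at chr7:37664272-37672099, centred 15.6 kb from the start site, scored 191 with hIFNb and 192 untreated in clone 11, against 23 with hIFNb and 24 untreated in clone 13. The control libraries scored 154 to 178. Clone 13 alone was low, and the log2 difference was 2.97 (SE 0.16, limma adjusted p = 1.1e-12). Over the start site itself, the peak at chr7:37681609-37691252 scored 118 with hIFNb and 151 untreated in clone 11, against 16 with hIFNb and 27 untreated in clone 13, a log2 difference of 2.62 (SE 0.18, limma adjusted p = 1.9e-10). All 4 adjacent peaks from 37645162 to 37730764 were higher in clone 11, by 2.02 to 2.97, and the next peaks, near SFRP4 and EPDR1, were not called. The promoter is shown because it lies inside this peak. It is 250 bases before to 50 after the start, from RefSeq on GRCh38.p14, with an AP-1-type motif (TGANTCA, the same on both strands) in capitals.
GPR141, chr7:37683516-37683815, plus strand: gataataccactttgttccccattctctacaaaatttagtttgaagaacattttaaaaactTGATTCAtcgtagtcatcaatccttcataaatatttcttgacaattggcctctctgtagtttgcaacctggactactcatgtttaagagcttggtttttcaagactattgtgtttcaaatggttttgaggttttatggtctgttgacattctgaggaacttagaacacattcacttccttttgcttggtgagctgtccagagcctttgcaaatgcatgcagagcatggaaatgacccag
That motif occurs in 5.75% of the 15843 protein-coding promoter windows of this length. It is a match of letters and shows no binding.

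The longest run of adjacent calls covered the pregnancy-specific glycoprotein (PSG) genes on chromosome 19. PSG proteins are secreted relatives of the CEACAM adhesion molecules and are known from the placenta. All 18 adjacent peaks from 42707963 to 43303798, a span of 596 kb, were higher in clone 11, with log2 differences of 1.11 to 2.14 and a median of 1.70. Their scores summed to 3267 with hIFNb and 4547 untreated in clone 11, against 1244 with hIFNb and 1436 untreated in clone 13. Control clone 1 summed to 3619 with hIFNb and 5166 untreated, and control clone 4 to 2742 with hIFNb and 3261 untreated, so clone 13 was the low one of 4. All 18 were also called after the mean of their 10 Mb window was removed from each library. The longest run between the control clones held 9 peaks.

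Within the cluster, the peak at chr19:43001195-43006443 near PSG11 had the largest difference. It scored 125 with hIFNb and 198 untreated in clone 11, against 37 with hIFNb and 33 untreated in clone 13, a log2 difference of 2.14 (SE 0.18, limma adjusted p = 3.8e-09). The PSG5 promoter peak scored 215 with hIFNb and 291 untreated in clone 11, against 55 with hIFNb and 87 untreated in clone 13 (log2 difference 1.84, SE 0.16, limma adjusted p = 3.8e-09). The PSG8 promoter peak scored 180 with hIFNb and 226 untreated in clone 11, against 66 with hIFNb and 57 untreated in clone 13 (log2 difference 1.70, SE 0.15, limma adjusted p = 1.2e-08). Near PSG2, the peak at 43057711 differed by 2.00 (SE 0.17, limma adjusted p = 6.1e-09). Outside the run the pattern ended. On one side CEACAM1, a cell adhesion gene, had a peak that was lower in clone 11, at 58 with hIFNb and 52 untreated, against 103 with hIFNb and 112 untreated in clone 13 (log2 difference -0.96, limma adjusted p = 0.00041, leave-out adjusted p = 0.14). On the other side, peaks near CD177 and TEX101 were not called.

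**Figure D3:**
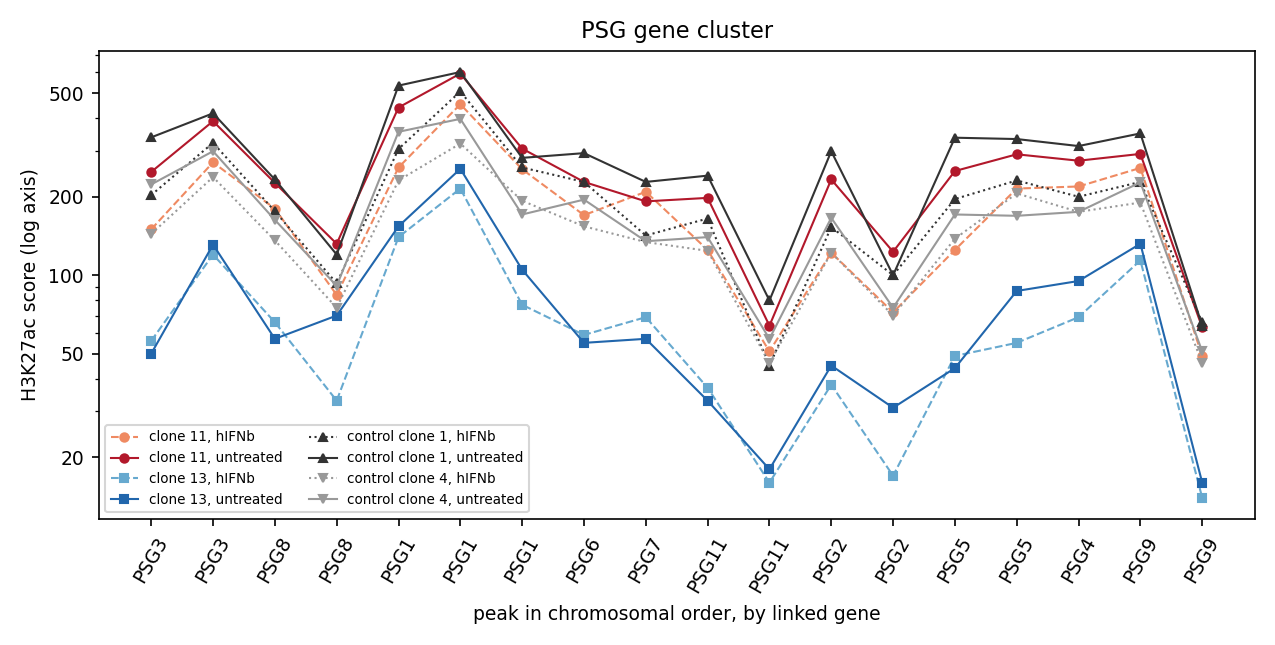
Scores (log axis) at the 18 adjacent peaks of the PSG cluster in chromosomal order, named by the linked gene, with 1 line for each of the 8 libraries. The lines of clone 13 (blue) lie below those of clone 11 (red) at every peak, and the control clones (grey and black) lie near clone 11.

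PSG genes are similar in sequence, so reads could be split among them by the authors' alignment and a single PSG peak is uncertain, while the sum over the cluster is less so. Promoters of 3 members are shown to let this be seen, from RefSeq on GRCh38.p14.
PSG3, chr19:42740432-42740731, minus strand: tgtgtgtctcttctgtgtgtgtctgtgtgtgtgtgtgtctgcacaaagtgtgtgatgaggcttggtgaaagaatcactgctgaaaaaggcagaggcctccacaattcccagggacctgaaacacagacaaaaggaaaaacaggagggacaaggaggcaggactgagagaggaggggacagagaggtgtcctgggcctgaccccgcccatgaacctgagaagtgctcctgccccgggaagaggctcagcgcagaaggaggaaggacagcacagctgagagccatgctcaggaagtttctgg
PSG4, chr19:43205589-43205888, minus strand: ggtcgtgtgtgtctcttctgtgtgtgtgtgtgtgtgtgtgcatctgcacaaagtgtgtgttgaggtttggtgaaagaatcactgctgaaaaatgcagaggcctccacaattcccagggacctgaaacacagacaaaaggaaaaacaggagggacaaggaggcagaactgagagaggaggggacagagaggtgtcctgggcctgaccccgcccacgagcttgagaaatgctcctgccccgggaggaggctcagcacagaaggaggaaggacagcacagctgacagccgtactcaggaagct
PSG5, chr19:43186487-43186786, minus strand: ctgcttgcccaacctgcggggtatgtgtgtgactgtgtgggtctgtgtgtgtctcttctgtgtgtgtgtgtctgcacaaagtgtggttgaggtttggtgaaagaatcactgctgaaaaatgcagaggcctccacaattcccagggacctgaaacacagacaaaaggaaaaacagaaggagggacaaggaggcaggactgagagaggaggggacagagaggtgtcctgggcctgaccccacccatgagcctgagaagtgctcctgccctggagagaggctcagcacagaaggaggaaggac
Aligned over these windows, PSG3 and PSG4 were 91.5% identical, PSG4 and PSG5 77.4%, and PSG3 and PSG5 75.7%. The unrelated GPR141 promoter was 48.8% to 49.9% identical to them. None of the PSG windows held the AP-1-type or the ISRE-like motif.

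By chromosome, the mean log2 difference over peaks was called at 7 of 24 chromosomes (29.2%). Chromosome Y (1.13, 18 peaks), 20 (0.33, 915 peaks), 17 (0.12, 1500 peaks) and 10 (0.10, 1729 peaks) were higher in clone 11. Chromosomes 7 (-0.24, 1630 peaks), 5 (-0.20, 1877 peaks) and 3 (-0.09, 2011 peaks) were lower. The SE was 0.034 for each, and the limma adjusted p was 2.3e-33 for Y, 8.2e-12 for 20, 3.6e-08 for 7, 1.4e-06 for 5, 0.0039 for 17, 0.014 for 10 and 0.037 for 3. The spread was common to all chromosomes in this test. With each chromosome's own spread on 2 degrees of freedom none was called, with an adjusted p of 0.092 for 20, 7, 5 and Y, and 4 had an unadjusted p under 0.05.

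On chromosomes 20, 7 and 5 most peaks lay on the same side of 0. On chromosome 20, 78.6% of peaks were above 0, and 230 were called higher and 13 lower. Chromosome 7 had 71.5% of peaks below 0, with 54 called higher and 316 lower. On chromosome 5, 69.7% were below 0, with 66 called higher and 247 lower. On Y, 11 of 18 were called, all higher. Chromosomes 5, 7 and 20 held 22.3% of all calls and 13.8% of all peaks. The differences with hIFNb and without it were close: 0.38 with hIFNb and 0.28 untreated on chromosome 20, -0.24 with hIFNb and -0.25 untreated on 7, and -0.20 with hIFNb and -0.21 untreated on 5.

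Control clones differed by chromosome too, at 15 of 24 (62.5%). Clone 1 minus clone 4 was 0.34 on chromosome 7 and -0.31 on chromosome 1, and the IRF1-guide pair was at -0.01 on chromosome 1. The difference of the IRF1-guide pair minus that of the control pair was called at 6 chromosomes (25%). It was 0.96 on Y, 0.44 on 20, 0.31 on 1, 0.25 on 10, 0.15 on 15 and -0.58 on 7. The SE of 0.048 was common to all chromosomes. Chromosomes 5, 17 and 3 were not called in that contrast (limma adjusted p = 0.15, 0.15 and 0.92). Without 1 library of clone 11 or 13, chromosome 10 and chromosome 3 lost their calls in each case (limma adjusted p from 0.077 to 0.54 for 10 and 0.36 to 0.48 for 3), and chromosome 17 without either library given hIFNb (0.48).

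**Figure D4:**
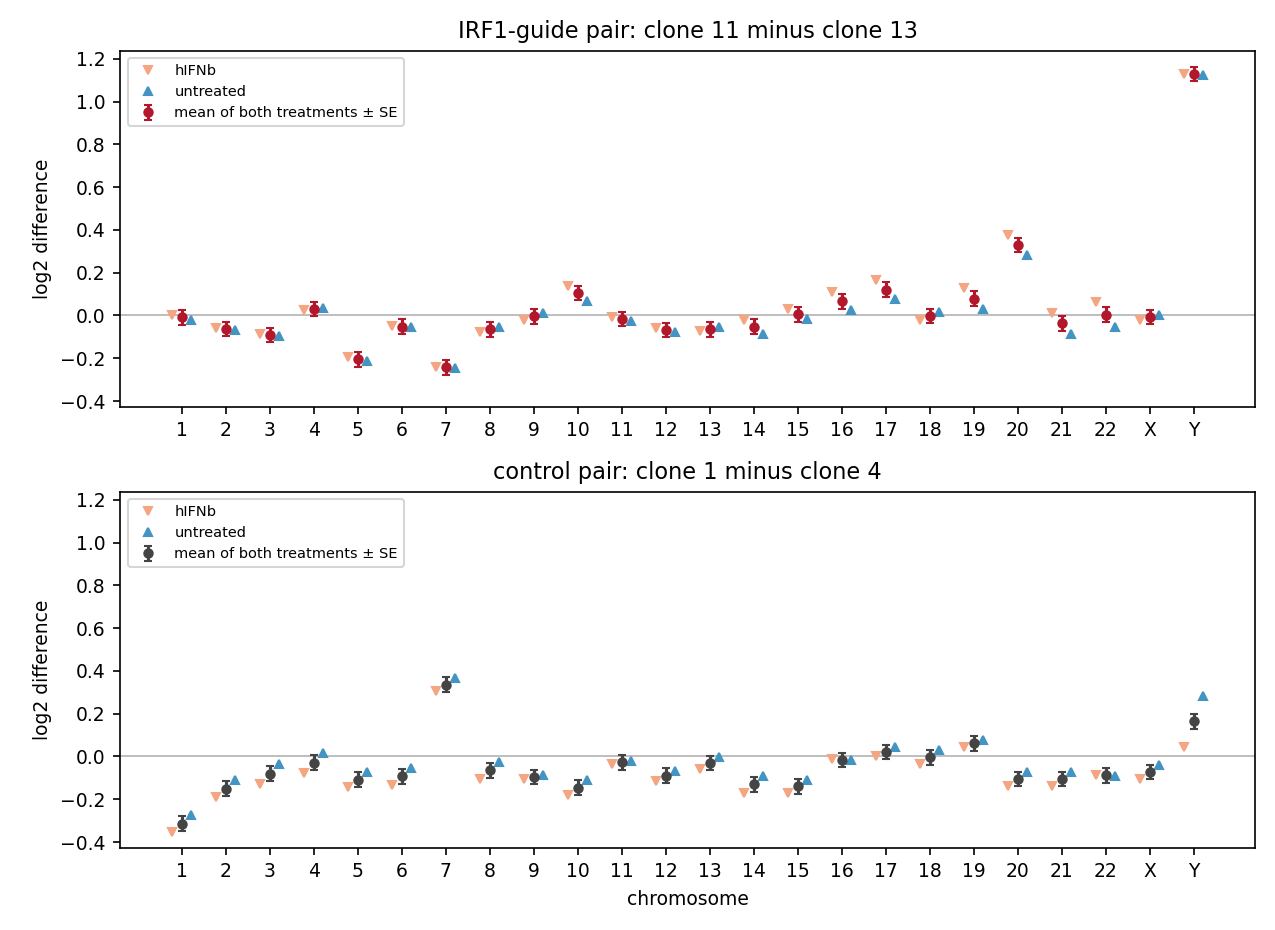
Mean log2 difference over the peaks of each chromosome, for clone 11 minus clone 13 (upper panel) and clone 1 minus clone 4 (lower panel), with triangles for each treatment and circles for the mean with its SE. In the upper panel chromosomes Y and 20 lie above 0 and chromosomes 5 and 7 below it, and in the lower panel chromosome 7 lies above 0 and chromosome 1 below it.

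Windows of 10 Mb showed whether a chromosome differed along its length. Of 301 windows with at least 10 peaks, 82 were called (27.2%), 25 higher and 57 lower in clone 11, while 157 were called between the control clones (52.2%). The correlation between the difference with hIFNb and without it was 0.82 over windows for clones 11 and 13 and 0.89 for the control pair. Chromosome 7 was split. Its first 70 Mb lay between -0.06 and 0.09, apart from -0.24 at 10 to 20 Mb, and each window from 70 Mb on was lower in clone 11, by -0.19 to -0.52. The lowest were 110 to 120 Mb (-0.52, SE 0.055, limma adjusted p = 6.5e-18) and 130 to 140 Mb (-0.51, limma adjusted p = 2.3e-17). Over the same part of chromosome 7, clone 1 minus clone 4 was 0.21 to 0.38 in every window, and over the first 70 Mb it was 0.27 to 0.55.

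Chromosome 20 was higher in 6 of 7 windows, from 0.26 at 40 to 50 Mb to 0.44 at 30 to 40 Mb (limma adjusted p = 3.4e-13), and 20 to 30 Mb was not called (0.12). Chromosome 5 was lower in 13 of 19 windows, to -0.37 at 80 to 90 Mb (limma adjusted p = 1.5e-09), and clone 1 minus clone 4 was -0.20 in that window. Elsewhere the differences were local. On chromosome 12 the window from 20 to 30 Mb was lower by -0.41 (limma adjusted p = 1.4e-11), next to -0.33 for the control pair. Chromosome 17 was higher at 80 to 90 Mb (0.33), 20 to 30 Mb (0.24), 70 to 80 Mb (0.24) and 30 to 40 Mb (0.23). Windows on chromosome 10 were higher at 130 to 140 Mb (0.31), 70 to 80 Mb (0.24), 40 to 50 Mb (0.22) and 120 to 130 Mb (0.17). Chromosome X held 2 higher and 5 lower windows, and chromosome 3 held 7 lower. Between 44 and 89 windows were called when 1 library was left out, 6 with treatment left out of the fit and none with each window's own spread, where 63 had an unadjusted p under 0.05.

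**Figure D5:**
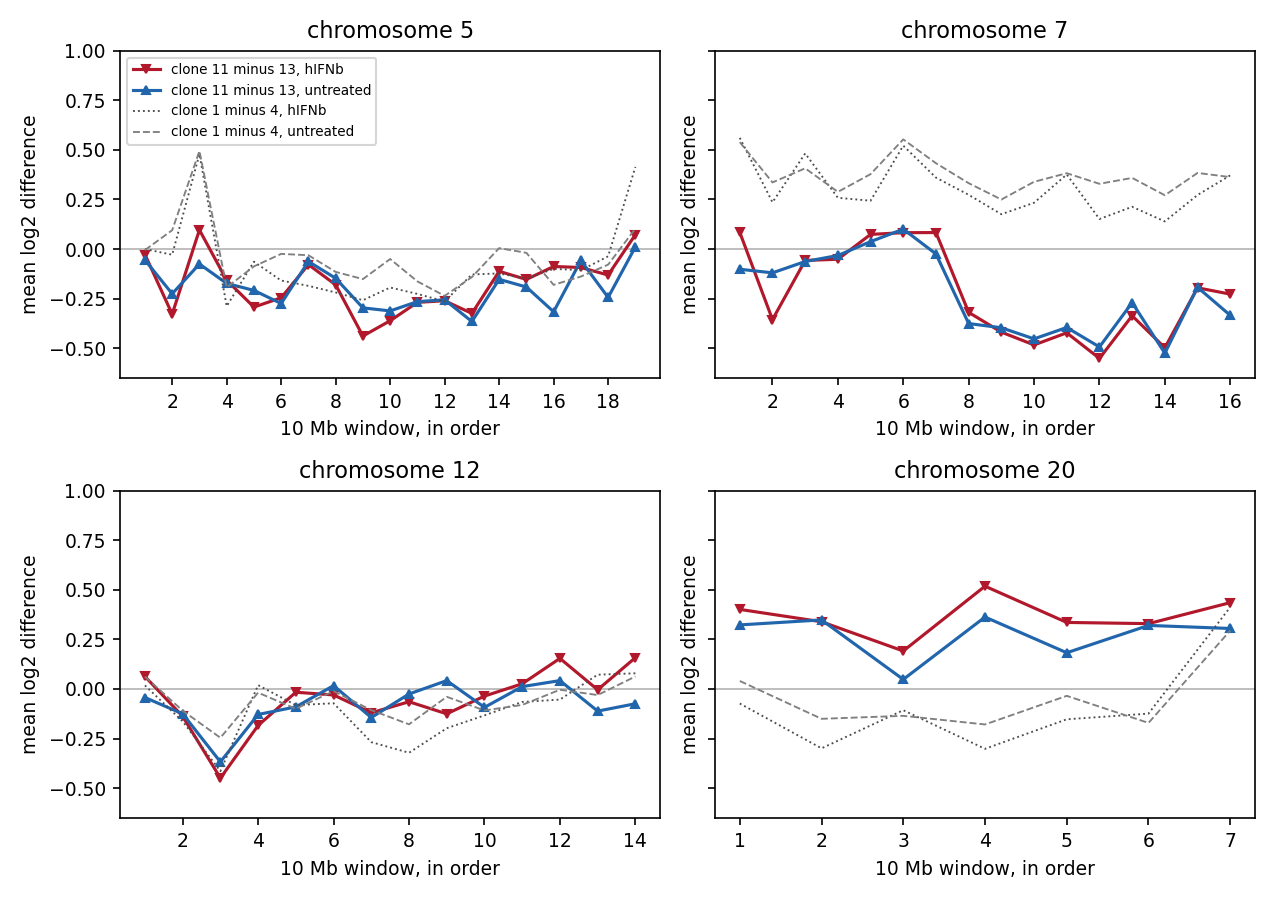
Mean log2 difference per 10 Mb window in order along chromosomes 5, 7, 12 and 20, with solid lines for clone 11 minus clone 13 and broken lines for clone 1 minus clone 4, after hIFNb and untreated. On chromosome 7 the solid lines drop between the seventh and the eighth window, to -0.35 in the eighth, and on chromosome 20 they stay above 0.

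On chromosome 20, PMEPA1, which encodes a membrane protein that TGF-beta induces and that dampens SMAD signalling, had the smallest p of all 73 peaks. Its domain at chr20:57663738-57719331 scored 2087 with hIFNb and 2074 untreated in clone 11, against 730 with hIFNb and 854 untreated in clone 13, while control libraries scored 1970 to 2385. The log2 difference was 1.40 (SE 0.068, limma adjusted p = 1.4e-13), and 1.07 after the window mean was removed. SLC2A10, a facilitative glucose transporter gene, had a peak with 105 with hIFNb and 91 untreated in clone 11, against 27 with hIFNb and 14 untreated in clone 13 (log2 difference 2.27, SE 0.19, limma adjusted p = 5.6e-09). The promoter peak of CYP24A1, the enzyme that inactivates vitamin D, scored 229 with hIFNb and 213 untreated in clone 11, against 102 with hIFNb and 94 untreated in clone 13 (log2 difference 1.17, SE 0.13, limma adjusted p = 3.5e-07). Clone 13 lay below all 3 other clones at these peaks.

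The neighbouring genes TRIB3, a stress-induced pseudokinase, and RBCK1, a subunit of the linear ubiquitin chain complex, lay close together near the start of chromosome 20. The TRIB3 peak scored 618 with hIFNb and 547 untreated in clone 11, against 292 with hIFNb and 243 untreated in clone 13 (log2 difference 1.12, SE 0.092, limma adjusted p = 3.0e-09). The RBCK1 peak scored 584 with hIFNb and 530 untreated in clone 11, against 297 with hIFNb and 216 untreated in clone 13 (log2 difference 1.13, SE 0.10, limma adjusted p = 9.2e-09). Control libraries scored 405 to 634 at RBCK1. Its promoter, from RefSeq on GRCh38.p14, lies inside the peak and is shown because it holds an ISRE-like motif (GAAA, any 2 bases and GAAA again, on either strand), in capitals.
RBCK1, chr20:408049-408348, plus strand: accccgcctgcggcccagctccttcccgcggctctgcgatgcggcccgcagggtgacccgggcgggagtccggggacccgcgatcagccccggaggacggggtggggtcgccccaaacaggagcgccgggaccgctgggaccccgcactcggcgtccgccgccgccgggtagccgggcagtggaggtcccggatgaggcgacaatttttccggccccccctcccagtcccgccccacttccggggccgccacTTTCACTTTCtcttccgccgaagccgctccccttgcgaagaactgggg
This motif occurs in 3.17% of the 15843 promoter windows. After the window mean was removed the log2 difference was 0.77 at RBCK1 and 0.76 at TRIB3, both still called.

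At TGM2 and BCL2L1, also on chromosome 20, most of the difference was that of the window. TGM2, transglutaminase 2, scored 2847 with hIFNb and 2504 untreated in clone 11, against 1858 with hIFNb and 1640 untreated in clone 13 (log2 difference 0.61, limma adjusted p = 1.8e-08), and 0.17 after the window mean was removed (limma adjusted p = 0.13). BCL2L1, which encodes the anti-apoptotic protein BCL-XL, scored 2525 with hIFNb and 2912 untreated in clone 11, against 1878 with hIFNb and 2007 untreated in clone 13 (log2 difference 0.48, limma adjusted p = 1.8e-06, leave-out adjusted p = 0.063). Without the window mean the BCL2L1 difference was 0.04 (limma adjusted p = 0.81). The promoter peak of WFDC2, a secreted epithelial protein gene, scored 40 with hIFNb and 33 untreated in clone 11, against 9 with hIFNb and 10 untreated in clone 13 (log2 difference 1.83, limma adjusted p = 7.7e-05, leave-out adjusted p = 0.097). A run of 7 adjacent peaks around BCAS1, CYP24A1 and PFDN4 was higher in clone 11, by 0.30 to 1.17.

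On the distal part of chromosome 7, where every window was lower in clone 11, AKR1B10, AKR1B15 and CYP3A5 had lower peaks. AKR1B10, an aldo-keto reductase that reduces aldehydes and retinal, had a promoter peak with 96 with hIFNb and 143 untreated in clone 11, against 296 in both libraries of clone 13, while control libraries scored 168 to 279. The log2 difference was -1.33 (SE 0.14, limma adjusted p = 1.2e-07), and -0.82 after the window mean was removed. The adjacent gene AKR1B15 had a peak with 89 with hIFNb and 88 untreated in clone 11, against 242 with hIFNb and 243 untreated in clone 13 (log2 difference -1.44, SE 0.14, limma adjusted p = 3.3e-08). These genes are close paralogs, and reads of one could be assigned to the other. CYP3A5, a drug-metabolising cytochrome P450, had a promoter peak with 114 with hIFNb and 154 untreated in clone 11, against 241 with hIFNb and 283 untreated in clone 13 (log2 difference -0.97, limma adjusted p = 1.2e-05, leave-out adjusted p = 0.072).

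A peak in an intron of MET, the hepatocyte growth factor receptor gene, scored 448 with hIFNb and 659 untreated in clone 11, against 859 with hIFNb and 1046 untreated in clone 13 (log2 difference -0.80, SE 0.087, limma adjusted p = 2.6e-07). After the window mean was removed it was -0.28 (SE 0.095, limma adjusted p = 0.056). Most of its difference was thus that of the window, and the rest fell just short of a call. The peak of CDK6, a cyclin D-dependent kinase gene, scored 247 with hIFNb and 251 untreated in clone 11, against 369 with hIFNb and 364 untreated in clone 13 (log2 difference -0.56, limma adjusted p = 0.0012, leave-out adjusted p = 0.15), and -0.09 without the window mean (limma adjusted p = 0.73). PDK4, which inhibits pyruvate dehydrogenase, had a pair of linked peaks with log2 differences of -0.99 and -1.10 (limma adjusted p = 5.7e-05 and 0.00013, leave-out adjusted p = 0.12 and 0.14). SAMD9L, an antiviral gene that interferon induces, had a promoter peak with 174 with hIFNb and 55 untreated in clone 11, against 304 with hIFNb and 169 untreated in clone 13 (log2 difference -1.20, limma adjusted p = 5.1e-06, leave-out adjusted p = 0.11). Elsewhere on this part of the chromosome, AGBL3, FMC1-LUC7L2 and IFT56 had peaks lower by -1.73, -1.67 and -1.65 (leave-out adjusted p = 0.068, 0.16 and 0.078), and the GNG11 promoter peak was lower by -1.33 (leave-out adjusted p = 0.11).

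On chromosome 5, 3 peaks in introns of PDE4D, a phosphodiesterase gene that ends cyclic AMP signals, were lower in clone 11. The peak at chr5:59742423-59762172 scored 129 with hIFNb and 156 untreated in clone 11, against 367 with hIFNb and 350 untreated in clone 13, and control libraries scored 285 to 378. Here clone 11 alone was low (log2 difference -1.33, SE 0.12, limma adjusted p = 1.0e-08). The other PDE4D peaks differed by -1.31 and -1.03 (limma adjusted p = 1.2e-07 and 4.4e-08), and all 3 were also called after the window mean was removed.

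The region around SOX5, an SRY-box transcription factor gene on chromosome 12, varied among all 4 clones. The peak at chr12:24596306-24619998 scored 321 with hIFNb and 533 untreated in clone 11, against 1105 with hIFNb and 1549 untreated in clone 13. Control clone 1 scored 66 with hIFNb and 139 untreated, and control clone 4 scored 344 with hIFNb and 640 untreated. The log2 difference was -1.66 (SE 0.10, limma adjusted p = 1.9e-11), that of the control pair was -2.28, and the IRF1-guide difference minus the control difference was 0.62 (limma adjusted p = 0.0058), in the opposite direction. A further 3 of the 73 peaks in this region, at 24356695, 24715833 and 24746351, were lower in clone 11 by -1.45, -1.15 and -1.11, and -0.14, -0.09 and 0.39 after the control difference was subtracted (limma adjusted p = 0.79, 0.79 and 0.063). The SOX5 promoter peak scored 81 with hIFNb and 94 untreated in clone 11, against 183 with hIFNb and 206 untreated in clone 13 (log2 difference -1.14, SE 0.19, limma adjusted p = 0.00017, leave-out adjusted p = 0.11). Its promoter, from RefSeq on GRCh38.p14, is rich in CG pairs (29 in 300 bases, against 1 in the GPR141 window) and is shown for that contrast.
SOX5, chr12:24562442-24562741, minus strand: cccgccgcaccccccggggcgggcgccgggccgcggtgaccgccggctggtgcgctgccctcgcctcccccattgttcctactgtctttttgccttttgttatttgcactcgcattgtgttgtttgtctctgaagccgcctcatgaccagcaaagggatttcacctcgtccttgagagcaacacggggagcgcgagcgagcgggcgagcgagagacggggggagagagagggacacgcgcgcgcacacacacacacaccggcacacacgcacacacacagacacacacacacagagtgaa
Neither the AP-1-type nor the ISRE-like motif occurs in it. Farther along, 5 adjacent peaks from 25861918 to 26014591, 4 of them within RASSF8, which encodes a Ras-association domain protein, summed to 260 with hIFNb and 336 untreated in clone 11, against 729 with hIFNb and 837 untreated in clone 13. Control libraries summed to 80 to 107 there, so both IRF1-guide clones lay above both control clones, and clone 13 farther.

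On other chromosomes, the 73 peaks included genes of varied function that were higher in clone 11. SEMA7A, a membrane-anchored semaphorin gene, scored 434 with hIFNb and 393 untreated in clone 11, against 184 with hIFNb and 173 untreated in clone 13 (log2 difference 1.21, SE 0.11, limma adjusted p = 8.6e-09). The peak beside it, near CYP11A1, the cholesterol side-chain cleavage enzyme of steroid synthesis, differed by 1.08 (limma adjusted p = 1.8e-09). BNC1, a zinc finger protein gene of stratified epithelium, scored 676 with hIFNb and 757 untreated in clone 11, against 363 with hIFNb and 365 untreated in clone 13 (log2 difference 0.97, limma adjusted p = 6.6e-09). At both SEMA7A and BNC1 clone 13 lay below the other 3 clones.

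At EYA1 and PRKCQ both IRF1-guide clones lay below the control clones. The peak within EYA1, a transcriptional coactivator gene, scored 171 with hIFNb and 152 untreated in clone 11, against 34 with hIFNb and 47 untreated in clone 13, and 254 to 469 in control libraries (log2 difference 1.98, SE 0.15, limma adjusted p = 5.9e-10). The peak within PRKCQ, protein kinase C theta, scored 199 with hIFNb and 170 untreated in clone 11, against 44 with hIFNb and 64 untreated in clone 13, and 359 to 426 in control libraries (log2 difference 1.77, SE 0.15, limma adjusted p = 3.0e-09). BMAL2, a circadian transcription factor gene, had a peak that scored 693 with hIFNb and 758 untreated in clone 11, against 349 with hIFNb and 360 untreated in clone 13, and 417 to 484 in control libraries, between the clones (log2 difference 1.03, SE 0.095, limma adjusted p = 1.6e-08). The largest log2 difference of the 73 lay far from protein-coding genes, at chr11:41783250-41787096, with 21 with hIFNb and 48 untreated in clone 11, against 1 with hIFNb and 3 untreated in clone 13 (3.54, SE 0.35, limma adjusted p = 4.5e-08).

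Of the interferon-stimulated genes, 15 of 109 linked peaks were called, 8 higher and 7 lower in clone 11 (13.8%, against 13% of all peaks), with a median log2 difference of -0.02, the same as over all peaks. Once window means were removed, 3 were higher and 4 lower. The share called rises with mean score, from 3.62% in the lowest of the 4 groups to 25.8% in the highest. The part of score in the share of any gene list was not tested. Over all gene lists, 3 of 148 called peaks kept their call without any 1 library, and none named in this paragraph was among them. The 15 calls of the interferon-stimulated list differed in size. The largest was a peak near CXCL10, a T cell-attracting chemokine gene, with 43 with hIFNb and 17 untreated in clone 11, against 6 with hIFNb and 1 untreated in clone 13 (log2 difference 2.91, SE 0.36, limma adjusted p = 2.1e-06, leave-out adjusted p = 0.057). IDO1, which encodes a tryptophan-degrading enzyme and is not in the list, scored 36 with hIFNb and 16 untreated in clone 11, against 23 with hIFNb and 0 untreated in clone 13, and 36 to 206 in control libraries (log2 difference 2.36, limma adjusted p = 0.00043, leave-out adjusted p = 0.44). HERC5, a ligase of the ISG15 pathway, was higher by 0.98 (limma adjusted p = 0.048, leave-out adjusted p = 0.87), and a low peak of DDX60L was lower by -2.18 (leave-out adjusted p = 0.42). ISG15, the ubiquitin-like modifier, had a promoter peak higher by 0.46 (limma adjusted p = 0.00039, leave-out adjusted p = 0.12), and OAS1, an RNA sensor, one lower by -0.62 (limma adjusted p = 0.00078, leave-out adjusted p = 0.14). SAMD9L, above, was also lower. CXCL10 and DDX60L each had a stronger peak as well, at the promoter. The CXCL10 promoter peak was higher by 0.67 (limma adjusted p = 0.026), and by 0.48 after the window mean was removed (limma adjusted p = 0.16). The DDX60L promoter peak differed by 0.25, in the opposite direction to the low peak, and was not called (limma adjusted p = 0.10). In the list of interferon receptors and JAK-STAT genes 2 peaks were higher and 2 lower of 57. SOCS3, a feedback inhibitor of JAK-STAT signalling, scored 1564 with hIFNb and 1363 untreated in clone 11, against 1122 with hIFNb and 995 untreated in clone 13 (log2 difference 0.47, limma adjusted p = 3.8e-05, leave-out adjusted p = 0.085). IFNGR1 and IFNGR2, the interferon gamma receptor chains, were lower by -0.81 and -0.55 (leave-out adjusted p = 0.24 and 0.23).

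The antigen presentation list had 9 of 46 peaks called, 7 higher and 2 lower (19.6%, against 13% of all peaks), with a median of 0.08. Its class II genes and their regulators, a subset chosen after the values were seen, had 7 peaks tested, of which 5 were called, each higher in clone 11, at CD74, CIITA, HLA-DRA and HLA-DRB1. CD74, the invariant chain, scored 128 with hIFNb and 106 untreated in clone 11, against 59 with hIFNb and 67 untreated in clone 13, and 215 to 228 in control libraries (log2 difference 0.88, SE 0.15, limma adjusted p = 0.00020, leave-out adjusted p = 0.14). HLA-DRB1 had 9 in both libraries of clone 11, against 2 with hIFNb and 0 untreated in clone 13 (log2 difference 2.53, limma adjusted p = 0.0011, leave-out adjusted p = 0.20), and HLA-DRA had 9 with hIFNb and 11 untreated in clone 11, against 1 with hIFNb and 3 untreated in clone 13 (log2 difference 1.95, limma adjusted p = 0.0046, leave-out adjusted p = 0.19). CIITA, the class II transactivator, was higher by 0.49 (limma adjusted p = 0.0015, leave-out adjusted p = 0.23). Of the class I genes, HLA-B and HLA-G were higher by 0.58 and 0.41 (leave-out adjusted p = 0.31 and 0.39), HLA-F was lower by -0.53, and the peptide-trimming enzyme gene ERAP2 was lower by -0.42 (leave-out adjusted p = 0.40 and 0.46). HLA genes are polymorphic paralogs, so their read assignment is uncertain.

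Epithelial identity genes differed in both directions. The classical epithelial list had 16 of 65 peaks called, 6 higher and 10 lower, 24.6% against 13% of all peaks. The part of score in that share was not tested. The ductal transcription factor list had 5 higher and 3 lower of 51, and 3 higher and 10 lower once window means were removed. The promoter peak of ESRP1, an epithelial splicing regulator, scored 105 with hIFNb and 89 untreated in clone 11, against 28 with hIFNb and 33 untreated in clone 13, and 119 to 143 in control libraries (log2 difference 1.64, SE 0.18, limma adjusted p = 4.7e-07, leave-out adjusted p = 0.051). ESRP1 was thus lowest in clone 13 of the 4 clones. The epithelial repressors OVOL1 and OVOL2 were higher by 0.83 and 0.90 (leave-out adjusted p = 0.31 and 0.49). Basal and mesenchymal genes had 7 higher and 4 lower of 66, among them GATA2, higher by 1.56, and HMGA2, lower by -0.84 (leave-out adjusted p = 0.22 and 0.30).

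Metabolic lists were mixed. Xenobiotic, steroid and retinoid genes had 6 higher and 11 lower of 74 peaks (median -0.18), among them the CYP24A1, CYP3A5 and AKR1B10 peaks above. All 5 called peaks of AKR1C1, AKR1C2 and AKR1C3, aldo-keto reductases of steroid metabolism, were lower in clone 11, by -0.34 to -0.69, although chromosome 10 was higher on average. The AKR1C2 domain scored 916 with hIFNb and 1082 untreated in clone 11, against 1334 with hIFNb and 1380 untreated in clone 13 (log2 difference -0.45, SE 0.074, limma adjusted p = 0.00014, leave-out adjusted p = 0.13), and the leave-out adjusted p reached 0.33 among the 5. Clone 1 lay below clone 4 at the same 5 peaks, by -0.53 to -0.90. After that control difference was subtracted, all 5 turned to the opposite direction, by 0.12 to 0.40, and AKR1C2 was called there (0.40, limma adjusted p = 0.013). The AKR1C genes are close paralogs, so reads could be split among them. Cholesterol and fatty acid genes had 5 higher and 1 lower of 75. ACSL1, an acyl-CoA synthetase gene, had a linked peak with 68 with hIFNb and 47 untreated in clone 11, against 14 with hIFNb and 23 untreated in clone 13 (log2 difference 1.60, limma adjusted p = 0.00022, leave-out adjusted p = 0.19), and FASN, fatty acid synthase, was higher by 0.62 (leave-out adjusted p = 0.23). Glycolysis and pentose phosphate genes had 1 higher and 4 lower of 49, with HKDC1, a hexokinase family gene, higher by 0.37 (leave-out adjusted p = 0.15). In the TCA cycle and respiratory chain list 2 were higher and 2 lower of 53, with IDH3B and OGDH higher by 0.89 and 0.70 and IDH1 and MDH2 lower by -0.68 and -0.92 (leave-out adjusted p = 0.23, 0.32, 0.44 and 0.34).

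Among regulators, AP-1 and BATF family genes had 7 higher and 2 lower of 34 peaks (26.5% called, against 13% of all peaks, median 0.13). The part of score in that share was not tested. Once window means were removed, 1 was higher and 2 lower. BATF, FOSB and MAFF were higher by 0.64, 0.62 and 0.56, and a peak near FOS was lower by -0.66, and each lost its call without 1 library (leave-out adjusted p = 0.46, 0.25, 0.50 and 0.42). NF-kB and acute-phase genes had 5 higher and 1 lower of 51, with the chemokine genes CCL20 and CXCL3 higher by 0.74 and 0.59 (leave-out adjusted p = 0.24 and 0.20). Homeobox and neural lineage factors had 4 higher and 10 lower of 78, with IRX4 higher by 1.85 and TBX4 lower by -1.40 (leave-out adjusted p = 0.12 and 0.14). The cell cycle list had 5 higher and 3 lower of 47, the driver and copy-number list 5 and 5 of 68, the HOX list 2 and 0 of 24, imprinted genes 2 and 1 of 29, and chromatin machinery 3 and 0 of 50. No peak was called by limma among 42 of chromosome 19 zinc finger genes (3 at an unadjusted p under 0.05), 18 of housekeeping genes (3) or 1 of a cancer-testis gene (0).

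Of the other promoter peaks with the largest differences, those higher in clone 11 included ATP2C2, a secretory pathway calcium pump, with 55 with hIFNb and 49 untreated in clone 11, against 15 with hIFNb and 7 untreated in clone 13 (log2 difference 2.23, limma adjusted p = 2.8e-06, leave-out adjusted p = 0.088). SLC6A14, an amino acid transporter gene, had 39 with hIFNb and 60 untreated in clone 11, against 15 with hIFNb and 11 untreated in clone 13 (log2 difference 1.83, limma adjusted p = 2.0e-05, leave-out adjusted p = 0.11). EXTL1, ROBO4 and ZMYND11 were higher by 2.78, 1.93 and 1.87 at scores up to 49 (leave-out adjusted p = 0.24, 0.24 and 0.45). Those lower in clone 11 were weak peaks. EML1, HOXA10-HOXA9, PIAS4, ZNF324B, DYRK1A and PELI2 had scores of at most 40 in clone 13 and log2 differences of -1.26 to -1.76, with a leave-out adjusted p of 0.18 to 0.41. The IRAG2 promoter peak, in the SOX5 region, was lower by -1.38 and higher by 0.15 once the control difference was subtracted (limma adjusted p = 0.88).

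Distal peaks near a gene followed the same course. FKBP9, IL26, ODAPH, PPFIBP2, PRKCI and TRIM42 had peaks higher by 2.17 to 2.76 at scores of 1 to 12 in clone 13 (leave-out adjusted p from 0.16 to 0.37). ANO1, ALG9, CHN1, CRB1, KIF25, SENP2, TENM3, WDR72 and ZMYND12 had peaks lower by -1.72 to -2.60, and each lost the call without at least 1 library (leave-out adjusted p from 0.13 to 0.71). CRB1 differed by 1.16 in the opposite direction once the control difference was subtracted (limma adjusted p = 0.17).

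Removing the mean of each 10 Mb window left 3319 calls (10.4%), of which 2725 were also called before. On chromosome 20 the calls became 65 higher and 31 lower, and on chromosome 7 they became 90 higher and 92 lower. Of the 73 peaks, 69 remained called. The GPR141 peaks then had the largest differences among them at a gene, 3.02 and 2.67. IRF1 itself, within a domain at chr5:132442197-132506408, scored 2265 with hIFNb and 1332 untreated in clone 11, against 2033 with hIFNb and 1187 untreated in clone 13 (log2 difference 0.16, SE 0.065, limma adjusted p = 0.11). After the window mean was removed the IRF1 difference was 0.29 (limma adjusted p = 0.0093). Without that removal, clone 1 minus clone 4 was 0.55 at IRF1, to be set beside the 0.16 of clones 11 and 13. GAPDH scored 255 with hIFNb and 224 untreated in clone 11, against 285 with hIFNb and 237 untreated in clone 13 (log2 difference -0.12, limma adjusted p = 0.58), and the ACTB promoter peak differed by 0.07 (limma adjusted p = 0.78).

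After the difference between control clones was subtracted from that between clones 11 and 13, 2896 peaks were called (9.06%). Of the 4151 calls, 3788 kept their direction in that contrast and 1546 were called. It was called in the same direction at 66 of the 73 peaks, 58 higher and 8 lower. The exceptions were the 4 peaks of the SOX5 region, of which the largest was called in the opposite direction, and the peaks at RGS1, SKAP1 and between TUBBP6 and FKBP9P1.

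By position, calls were made at 9.22% of 9143 promoter peaks, 13% of 10927 other peaks within 50 kb of a start site and 15.9% of 11891 farther peaks. The order was the same for the control pair, at 9.27%, 12.1% and 15.3%, and no test was made of these shares. Peaks of 20 kb or more were called at 32.7% of 1450. Promoters with fewer than 10 CG pairs in 300 bases made up 22.8% of the 461 promoters inside higher peaks, 35.0% of the 220 inside lower peaks and 9.37% of the 6980 inside peaks that were not called. The ISRE-like motif was in 3.47% of the promoters inside higher peaks, 4.55% of those inside lower peaks and 3.51% of those not called, and the AP-1-type motif in 7.59%, 8.18% and 4.53% in the same order. Called promoters lay in stronger peaks (median mean score 192 in higher, 181 in lower and 66.5 in uncalled ones), and the part of score in these shares was not tested.

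A difference between the clones in their response to hIFNb was called at 0 peaks by limma's adjusted p (0%), with 1575 peaks at an unadjusted p under 0.05, which is 4.93% of those tested. This test had a single residual degree of freedom, from the control clones, and assumed that libraries of clones 11 and 13 vary as those do. With peaks of a mean score of at least 20 alone, 8 were called, 4 of them linked to a gene, at FGFRL1, APOBEC3A and RASGRF2 for a larger response in clone 11 and IDO1 for a smaller one (limma adjusted p = 0.0022, 0.0023, 0.049 and 0.0011). At interferon-stimulated genes the median log2 response was 1.19 in clone 11 and 1.12 in clone 13, beside 1.03 in control clone 1 and 1.11 in control clone 4. The median difference of responses was 0.06 over these 109 peaks, with 61 larger and 47 smaller in clone 11. An unadjusted p under 0.05 was reached by limma at 11 of them (10.1%, against 4.93% of all peaks). The ISG15 promoter peak scored 1184 with hIFNb and 532 untreated in clone 11, against 885 with hIFNb and 378 untreated in clone 13, a difference of log2 responses of -0.07. HERC6, an interferon-induced ligase gene, scored 361 with hIFNb and 30 untreated in clone 11, against 330 with hIFNb and 27 untreated in clone 13, a difference of -0.02. The antigen presentation list had a median response of 0.43 in clone 11 and 0.28 in clone 13, and 5 of 46 peaks at an unadjusted p under 0.05. HERC6 and ISG15 were chosen after their values were seen.

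Peaks with the smallest p for a larger response in clone 11, none of which passed the test over all peaks, lay at FGFRL1, APOBEC3A, GNL1, TENT4B and RASGRF2. At APOBEC3A, a cytidine deaminase gene that interferon induces, scores were 95 with hIFNb and 8 untreated in clone 11, against 71 with hIFNb and 40 untreated in clone 13 (difference of log2 responses 2.60). Those for a smaller response lay at IDO1, SUV39H1, NEURL3, ASTE1 and GALP. At IDO1 the difference of responses was -3.46 and rests on a score of 0 in untreated clone 13. The smallest adjusted p of all peaks was 0.89.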

How the data were processed

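H3K27ac ChIP-seq was measured in 8 libraries, with 1 library per clone and treatment. The authors deposited a table of 31961 peaks whose values are scores, peak counts normalised by the authors (the method is not given in the sources used here) and rounded to whole numbers. The submitters' processing notes name Bowtie2 as a tool and GRCh38 (hg38) as the build. The depth in reads is unknown, so no counting interval is given. From these scores, log2(score + 1) was fitted with limma 3.58.1 (R 4.3.3), with a mean per clone and an hIFNb term per genotype, which matches the libraries by treatment and leaves 2 residual degrees of freedom, a trend of spread on level, and Benjamini-Hochberg adjustment over all peaks. No filter was applied. Means over chromosomes and over 10 Mb windows of at least 10 peaks were fitted alike without the trend. Genes were linked by a RefSeq start within 50 kb of the peak centre, and a promoter peak held a start or lay within 2 kb of one. Genes were named by size: up to 15 linked and 10 promoter peaks each way among calls, the same after removing window means, up to 4 calls per gene list, and IRF1, GAPDH and ACTB. Some genes that this rule took are not reported here. The members and the 21 gene lists were chosen with earlier results of these data known. The fits were tested on simulated data. Alternatives were pseudocounts, a score filter, scalings, fits on fewer libraries, no treatment term, other windows, and subtraction of the control difference, chosen after seeing the data. Where a library was left out, its clone's remaining library was assumed to vary like the others.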

Additional observations from a re-analysis of the deposited data

Results flagged for a closer look

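The difference between clones 11 and 13 itself differed from that between control clones 1 and 4 at 6 chromosomes, by limma's test of the difference of differences with Benjamini-Hochberg adjustment over 24 chromosomes (SE 0.0481). On chromosome 7 it was -0.578 on the log2 scale (adjusted p = 5.2e-15), with the IRF1-guide pair at -0.243 and the control pair at 0.336. Chromosome 20 stood at 0.436 (adjusted p = 4.6e-11), from 0.330 in the IRF1-guide pair and -0.106 in the control pair. At chromosome Y, which holds 18 peaks, it was 0.964 (adjusted p = 1.4e-23), from 1.13 and 0.164. The SE is common to all chromosomes, while on Y the control pair differed by 0.044 with hIFNb and 0.284 untreated. The p for Y is thus likely too small, and each chromosome's own spread was not used in this contrast. Chromosome 1 reached 0.305 (adjusted p = 4.4e-07) through the control pair, at -0.314, while the IRF1-guide pair was at -0.0081. Chromosome 10 gave 0.251 (adjusted p = 1.9e-05) and chromosome 15 gave 0.145 (adjusted p = 0.016), with control pairs at -0.146 and -0.140. Copy number was not measured in the data used here, and its part in these differences was not tested.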

How the results depend on the processing

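Between clones 11 and 13, 1115 peaks were called with a log2 difference of at least 1 and 1047 from their 4 libraries alone, and 122 to 975 with 1 library left out. For clone 1 against clone 4 these counts were 1103, 1941 and 14 to 1866. With window means removed, 904 were called at a log2 difference of at least 1 and 1753 to 3116 with 1 library left out. Without the treatment term, that is with no replicate block, 2 peaks were called between clones 11 and 13, 32 between clones 1 and 4, 1 with window means removed, 3 chromosomes and 6 windows. Treatment is the only pairing of a clone's libraries. Chromosomes called numbered 12 from the 4 libraries of clones 11 and 13, 0 with each chromosome's own spread (4 at an unadjusted p under 0.05) and 4 to 12 with 1 library left out. Windows called numbered 43 with medians over peaks, 0 with each window's own spread (63 at an unadjusted p under 0.05), 156 of 552 at 5 Mb, 49 of 159 at 20 Mb and 44 to 89 with 1 library left out. For the hIFNb response, 8 peaks were called at a mean score of at least 20, and no library could be left out for want of residual degrees of freedom. After subtraction of the control difference, log2 differences turned to 1.16 at CRB1, -0.16 at HDAC9, -0.17 at HOXB2, 0.15 at IRAG2, 0.62 at SOX5 and 0.17 at TBX15, and to 0.12 to 0.40 at the 5 AKR1C peaks. Of 148 called peaks of listed genes, 18 turned. Pseudocounts, scalings, the score filter and removal of chromosome means kept the count of calls between clones 11 and 13 within 1.5 times. Control calls were 1514 higher and 2476 lower in clone 1 as deposited, and 2259 higher and 1731 lower with medians set equal. The causes were not tested. Reads behind each score are unknown, so the limit set by depth could not be given.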
